A study of Mus musculus with 8 samples.

Results

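Bdh1 encodes the mitochondrial D-beta-hydroxybutyrate dehydrogenase, the enzyme that interconverts acetoacetate and beta-hydroxybutyrate. On these arrays the gene carried 8 of the 83122 probes, found by the gene name Bdh, its older symbol, or Bdh1. All 8 lay on chromosome 16, in 2 of the 18946 regions formed by joining probes no more than 500 bp apart. The upstream pair lay at the gene start, and the other 6 formed a fragment of 1231 bp inside the gene. The gene was picked because its signals differed between the ages, so its own values are given as a description, with no test.

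The samples were liver DNA of C57BL6/J mice, enriched for methylated fragments by MCAM (amplification of methylated CpG islands followed by microarray hybridisation). In fetal liver at E17.5 the DNA was labelled with Cy3, and in liver taken at P21, when pups were removed from their dams, it was labelled with Cy5. Each age had 2 biological replicates, and each replicate was hybridised on a pair of array designs, with both ages of a replicate on the same array. The labels name no genotype or treatment, and they do not say whether DNA of several animals was pooled. Every array used the same dye for the same age, so an effect of dye and one of age cannot be told apart, and the small number of arrays limits the precision. The liver was taken whole, so a change in the share of cells that carry a methylated fragment and a change within cells cannot be told apart. The arrays measure DNA, so the identity of the tissue could not be read from expressed markers.

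Ketone bodies are made in liver mitochondria from acetyl-CoA released by fatty acid oxidation and are burned in brain, heart and muscle. Suckling pups live on fat-rich milk and make ketone bodies actively, whereas the fetus depends largely on glucose and lactate that cross the placenta. Bdh1 catalyses the last step of synthesis in the liver and the first step of use elsewhere. In MCAM, a restriction enzyme blocked by CpG methylation cuts the unmethylated sites first. A second enzyme then cuts the methylated sites to leave ends that accept an adaptor, so that fragments bounded by methylated sites are amplified and give a brighter probe.

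RefSeq for GRCm38.p6 lists a pair of starts for Bdh1, 6456 bases apart on the plus strand of chromosome 16. The 250 bases before each start are shown because the array probes also form a pair of groups along the gene, with every CpG, the dinucleotide that carries methylation, in capitals.
First start, chr16:31422047-31422296: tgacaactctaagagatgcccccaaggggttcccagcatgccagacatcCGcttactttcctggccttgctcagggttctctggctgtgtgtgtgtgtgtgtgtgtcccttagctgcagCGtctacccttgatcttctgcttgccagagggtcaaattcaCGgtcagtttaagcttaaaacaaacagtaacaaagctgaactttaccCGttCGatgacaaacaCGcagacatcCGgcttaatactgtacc
Second start, chr16:31428503-31428752: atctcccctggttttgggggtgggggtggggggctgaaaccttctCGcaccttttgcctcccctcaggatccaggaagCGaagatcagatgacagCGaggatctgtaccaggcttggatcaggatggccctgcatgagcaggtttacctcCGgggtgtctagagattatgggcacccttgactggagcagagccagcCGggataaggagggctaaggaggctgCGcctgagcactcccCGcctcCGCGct

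The window before the first start held 7 CpG and had a GC content of 49.6%, and 57% of the 32841 promoter windows of this length held at most as many CpG. The window before the second start held 9 CpG at a GC content of 60.8%, and 62.2% of windows held at most as many. The median window held 6 CpG at a GC content of 52.4%. Both Bdh1 windows were therefore close to the middle of the promoter windows in CpG number. CCCGGG, a palindrome that reads the same on both strands and is cut by the SmaI and XmaI pair usual in MCAM, was in neither window and in 11.2% of all windows. That absence concerns these letters in these windows only.

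Which genome build the array coordinates follow was not given in the sources used here, so no probe was placed on either RefSeq start. In the array's own annotation the first Bdh1 probe was marked as promoter and the other 7 as inside the gene. Measured from the boundary between those marks, the fragment lay 5571 to 6929 bases into the gene in the array's coordinates. The spacing of the RefSeq starts falls within that range, but whether the fragment covers the second start was not tested. The array gives no exon, intron or UTR for these probes.

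Neither gene-start probe was brighter at P21 on both arrays. The first probe (chr16:30231468-30231528) had signals of 380 at E17.5 and 126 at P21 on the replicate 1 array, and of 95.6 and 52.8 on the replicate 2 array. P21 was the lower age on both arrays, with a log2 ratio of P21 over E17.5, centred on the array median, of -1.61 in replicate 1. Because neither channel of replicate 2 was well above background, this probe entered no average. The second probe (chr16:30231656-30231701) had 945 at E17.5 and 860 at P21 in replicate 1, and 785 at E17.5 and 832 at P21 in replicate 2. Its signals at the ages lay within a narrow band and their order changed between arrays. Its log2 ratio was -0.15 and 0.06, with a mean of -0.04 ± 0.15 (SD, n = 2 arrays), and it is the only value for the gene-start region.

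The fragment, at chr16:30237227-30238457, held much more signal at P21 except at its first probe. All 6 of its probes were well above background in both channels of both arrays, and none was saturated. The mean log2 ratio of the 6 probes was 2.93 in replicate 1 and 2.67 in replicate 2, a mean of 2.80 ± 0.18 (SD, n = 2), or 6.95-fold. These means average an end probe that was not brighter at P21 with 5 probes that were several-fold brighter at P21.

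The end probe nearest the gene start (chr16:30237227-30237276) was not brighter at P21. It gave 292 at E17.5 and 256 at P21 in replicate 1, and 185 at E17.5 and 101 at P21 in replicate 2. Its log2 ratio was -0.20 and -0.90, a mean of -0.55 ± 0.49 (SD, n = 2). P21 was the lower age on both arrays. The signals of this probe were below the median of all probes at the same age and array. Those medians were 341 at E17.5 and 330 at P21 in replicate 1, and 275 and 267 in replicate 2. Whether the probe lies on the amplified fragment was not tested. The scanner software's own log10 ratio at this probe was -0.057 with an error of 0.190 in replicate 1 and -0.264 with an error of 0.358 in replicate 2, so that error exceeded the ratio on both arrays. At the 5 other probes the software's error on the same log10 scale was 0.0850 to 0.138.

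The next probe, 148 bp farther into the gene (chr16:30237425-30237483), gave 3899 at E17.5 and 16774 at P21 in replicate 1, and 4544 and 20398 in replicate 2. Both P21 signals were far above both E17.5 signals. Its log2 ratio was 2.09 and 2.14, or 4.30-fold and 4.49-fold, and its mean of 2.12 ± 0.03 (SD, n = 2) was the lowest of the 5. It stands between the end probe and the plateau of the other 4 in ratio. The step up from the end probe was 2.30 log2 units in replicate 1 and 3.04 in replicate 2, and the next step was another 2.15 and 1.46.

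The last 4 probes formed a plateau. At chr16:30237608-30237668 the signals were 1158 at E17.5 and 22042 at P21 in replicate 1, and 2130 and 26364 in replicate 2. At chr16:30237840-30237885 they were 1095 and 22234 in replicate 1, and 3336 and 38498 in replicate 2. In each case the P21 signal of either replicate exceeded both E17.5 signals by several-fold. The folds were 19.0 and 12.4 at the former probe and 20.3 and 11.5 at the latter, with mean log2 ratios of 3.92 ± 0.45 and 3.92 ± 0.58 (SD, n = 2). In both, replicate 1 gave the larger fold.

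At chr16:30238156-30238201 the signals were 3007 at E17.5 and 32123 at P21 in replicate 1, and 4462 and 56452 in replicate 2. At chr16:30238412-30238457, the far end, they were 1792 and 23425 in replicate 1, and 2723 and 44758 in replicate 2. Here too the ages did not overlap, and replicate 2 gave the larger fold at both probes. The folds were 10.7 and 12.7, then 13.1 and 16.4, with mean log2 ratios of 3.52 ± 0.16 and 3.86 ± 0.23 (SD, n = 2). Over the plateau of 4 probes the mean was 3.80 ± 0.16 (SD, n = 2), with single probes from 3.40 to 4.33 in replicate 1 and from 3.50 to 4.01 in replicate 2. The replicate with the larger fold thus differed from probe to probe along the plateau.

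**Figure D1:**
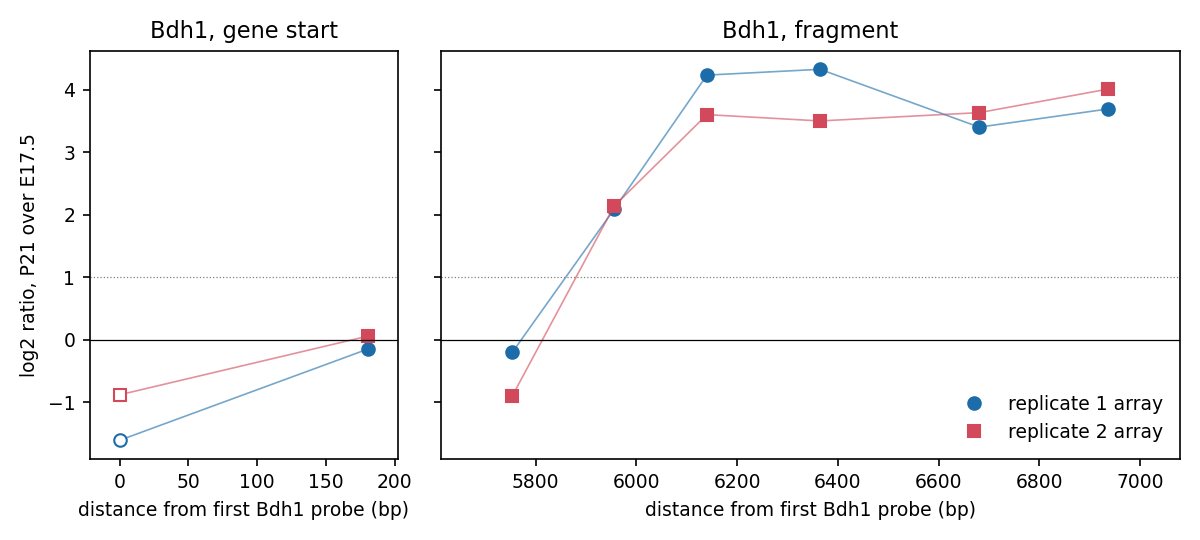
Log2 ratio of P21 over E17.5 (vertical axis) at each Bdh1 probe against its distance in bp from the first Bdh1 probe (horizontal axis), with the gene start on the left and the fragment on the right. Circles are the replicate 1 array and squares the replicate 2 array, open symbols mark the probe that was not well above background in replicate 2, and the dotted line is a ratio of 2-fold. The end probe sits below 0 on both arrays (-0.20 and -0.90), the next at 2.09 and 2.14, and the last 4 between 3.40 and 4.33.

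**Figure D2:**
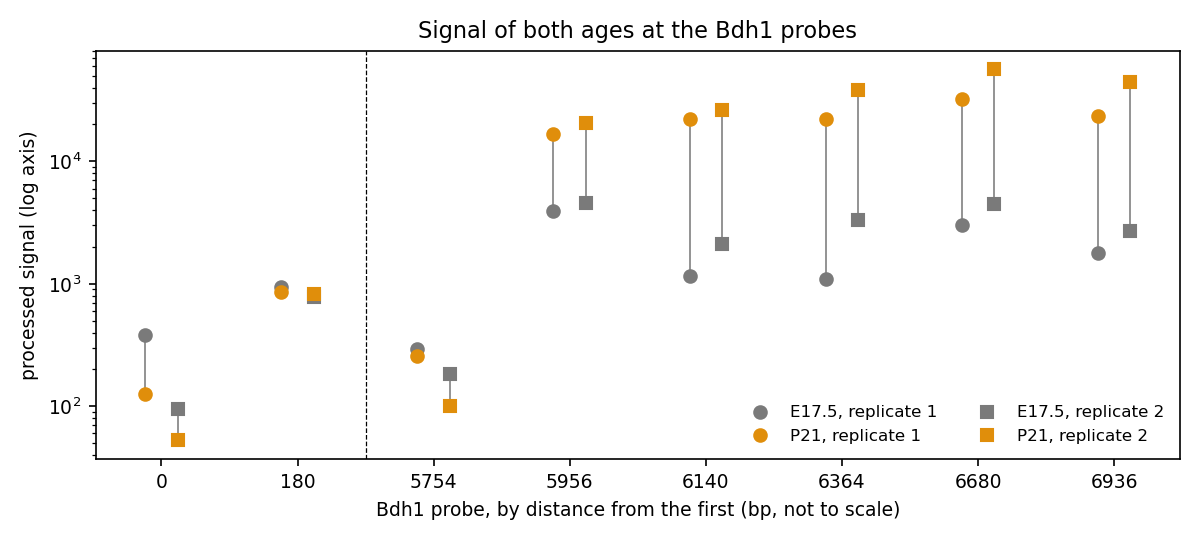
Processed signal (vertical log axis) of both ages at each Bdh1 probe, ordered along the gene with its distance in bp from the first probe (horizontal axis, not to scale). Grey is E17.5, orange is P21, circles are replicate 1, squares are replicate 2, and grey bars join the ages of one array. At the 5 probes after the end probe all P21 signals (16774 to 56452) lie above all E17.5 signals (1095 to 4544).

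Both ages contributed signal to the fragment. At the 5 probes after the end probe, E17.5 signals ran from 1095 to 3899 in replicate 1 and from 2130 to 4544 in replicate 2, and P21 signals from 16774 to 32123 and from 20398 to 56452. The fragment was thus detected in the fetal liver as well. Each of these probes was brighter on the replicate 2 array, by 0.22 to 1.61 log2 units at E17.5 and by 0.26 to 0.93 at P21. The lower folds of replicate 2 at the middle probes came with higher E17.5 signals there, and no channel was saturated.

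Counted over probes, 5 of the 7 tested Bdh1 probes were at least 2-fold higher at P21 on both arrays, against 0.234% of the 59516 tested probes of the arrays. At least 8-fold on both arrays was reached by 4 Bdh1 probes and by 10 probes in all (0.0168%). Both P21 signals exceeded both E17.5 signals at 5 Bdh1 probes and at 9.42% of all tested probes. Nothing is read from these shares, because the gene was chosen on the same contrast. No Bdh1 probe was 2-fold lower on both arrays, where 0.684% of all tested probes were.

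The end probe and the 5 others differed by more than the arrays did. The mean of the 5 was 3.55 in replicate 1 and 3.38 in replicate 2, or 3.47 ± 0.12 (SD, n = 2) and 11.1-fold. The gap from the end probe was 3.76 and 4.28, a mean of 4.02 ± 0.37 (SD, n = 2), or 16.2-fold in ratio. With the end probe included, the SD among the fragment's probes was 1.73 and 1.86, and without it 0.90 and 0.72. The far end had no such drop, with a ratio 0.92 and 1.62 above the mean of the rest of the fragment.

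An end step of this size was uncommon on the arrays. Of 7665 regions with at least 4 tested probes, 5 (0.0652%) had an end probe at least 2 log2 units from the mean of the rest, in 1 direction, on both arrays. These regions have 15330 ends, and of the 5 that passed, Bdh1 had the largest mean step, at -4.02. The others were Tdgf1-Lrrc2/Lrrc2 at -3.04, Il15 at -2.51, C1qtnf5 at -2.43 and Cd3eap/Ppp1r13l at -2.33. In those 4 regions the rest lay between -0.63 and 0.12, and the end was the low value. In Bdh1 the end lay at -0.20 and -0.90, and the rest was high at 3.55 and 3.38. The 4 were named after their values were seen. The Bdh1 step contains the high ratio for which the gene was chosen, and its end probe was known from earlier results of these data. Nothing is therefore read from its place among these steps.

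Among neighbouring tested probes of a region, 25 of 41899 pairs differed by at least 2 log2 units in 1 direction on both arrays, and the Bdh1 end and its neighbour were one of them. Of 11 regions whose rest was at least 2-fold higher on both arrays, 2 had an end probe below 0 on both, Bdh1 and Dusp2. Dusp2, which encodes a nuclear phosphatase that inactivates MAP kinases, had an end at -0.19 and -0.28 next to a rest at 1.18 and 1.93. It was named after its values were seen. That Bdh1 is in these counts also follows in part from its choice, so nothing is read from it.

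**Figure D3:**
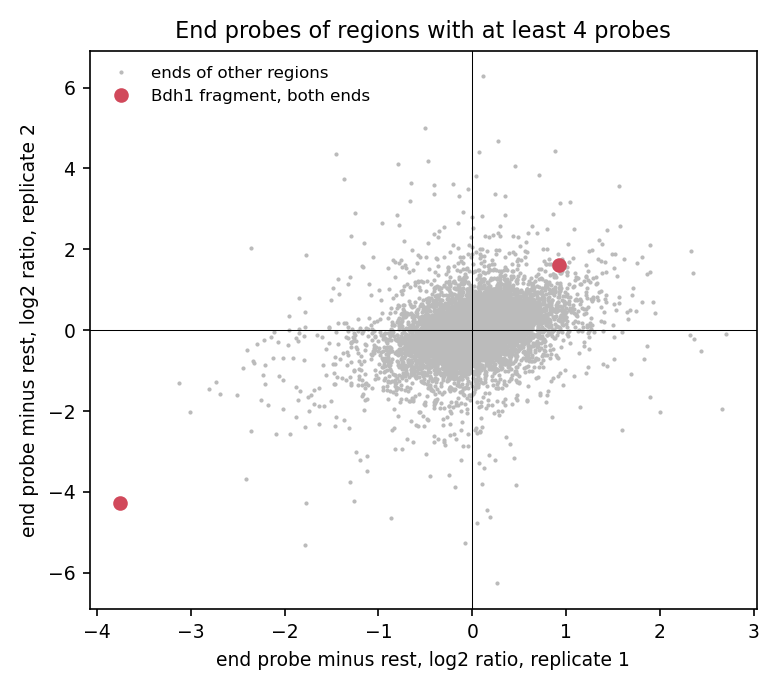
Log2 ratio of an end probe minus the mean of the other probes of its region, on the replicate 1 array (horizontal axis) and the replicate 2 array (vertical axis), for both ends of regions with at least 4 tested probes. Grey points are other regions and red points are both ends of the Bdh1 fragment. The end nearest the gene start lies at -3.76 and -4.28, and the far end at 0.92 and 1.62.

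Across the whole table the Bdh1 fragment ranked near the top. Among 11004 regions with at least 3 tested probes, Nrbp2 alone was at least as high on both arrays, and with any number of probes 3 other regions had a mean at least as high. Nothing is read from these ranks, because the gene was chosen on this contrast. One of the 2 Bdh1 regions was at least 2-fold higher on both arrays, against 0.0965% of 17617 tested regions (17), while 0.295% (52) were 2-fold lower. With signals corrected by normexp these counts became 26 and 4, so the balance of higher and lower regions turned, and Bdh1 stayed 2-fold higher. In limma, with Benjamini-Hochberg adjustment over all regions, 0 regions (0%) passed an adjusted p of 0.05 and 2-fold. The lowest adjusted p was 0.140, and 2077 regions (11.8%) had an unadjusted p below 0.05.

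The 5 regions closest to Bdh1 were found by Euclidean distance in the pair of array ratios, among 11003 others with at least 3 tested probes. Def6, a guanine nucleotide exchange factor of T cells, was the nearest at a distance of 1.61, with 1.48 in replicate 1 and 1.96 in replicate 2. Nrbp2, a pseudokinase, came next at 1.76 with 4.06 and 4.02. Both were high on both arrays, Nrbp2 above Bdh1 and Def6 below it. Cox4i2, a hypoxia-inducible subunit of cytochrome c oxidase, lay at 1.80 with 1.45 and 1.65. Onecut1, which encodes the liver transcription factor HNF6, lay at 1.97 with 1.49 and 1.31.

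No tested probe of these 5 regions had a mean below 0 over the arrays, so none had an end like that of Bdh1. All 5 included probes that the array marks as promoter, whereas all 6 probes of the Bdh1 fragment were marked as inside the gene. Regions with inside probes only were 15.7% of all tested regions (2773). They were 3 of the 17 regions 2-fold higher on both arrays (17.6%) and 15 of the 52 lower ones (28.8%), and the Bdh1 fragment was one of the 3.

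**Figure D4:**
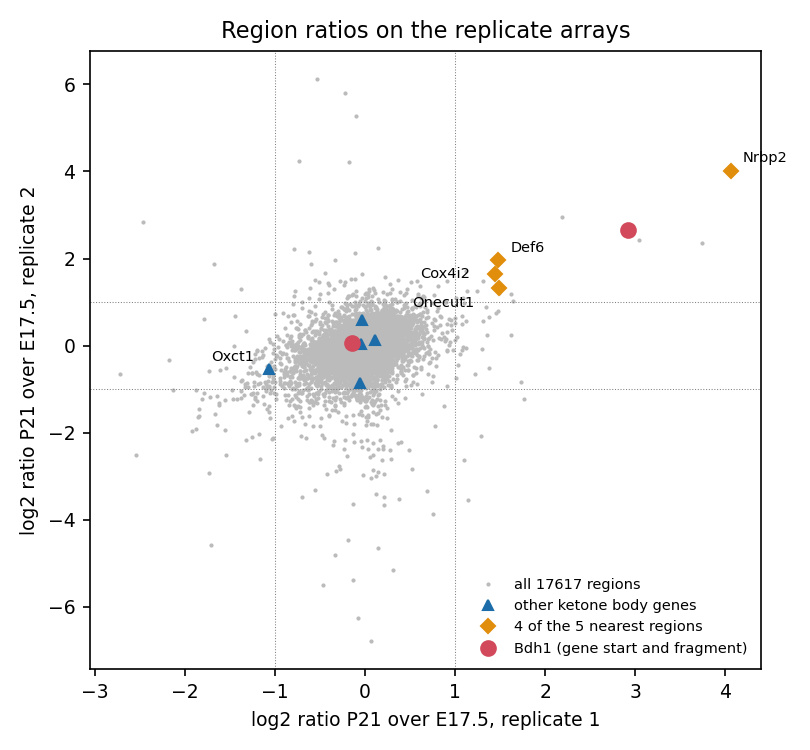
Mean log2 ratio of P21 over E17.5 of each region on the replicate 1 array (horizontal axis) and the replicate 2 array (vertical axis), with 2-fold marked by dotted lines. Grey points are all 17617 tested regions, red circles both Bdh1 regions, orange diamonds 4 of the 5 regions nearest to the fragment and blue triangles other ketone body genes. The Bdh1 fragment lies at 2.93 and 2.67, its gene start at -0.15 and 0.06, and Oxct1 at -1.07 and -0.54.

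The regions on either side of Bdh1 on chromosome 16 did not share its high ratio. Apod, which encodes the lipid carrier apolipoprotein D, lay 106773 bp before the gene, with 1 of 6 probes tested and a log2 ratio of -0.08 and -0.61 (-0.35 ± 0.37, SD, n = 2). Dlg1, a membrane scaffold protein, lay 233970 bp after it, with 3 of 4 probes tested and -0.14 and -0.19 (-0.17 ± 0.04, SD, n = 2). No probes lay between them and Bdh1, so how far the high ratio extends past the far end was not measured. With normexp signals the Dlg1 mean was 0.00, so its direction depended on the background correction.

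Among the genes of ketone body metabolism, the Bdh1 fragment alone reached 2-fold on both arrays. It was chosen on this contrast, and over all tested regions 0.0965% were 2-fold higher on both arrays and 0.295% were 2-fold lower. The list held 10 genes, of which 8 were measured in 9 regions. In limma 0 of the 8 regions other than the fragment passed the adjusted threshold, and 1 (12.5%) had an unadjusted p below 0.05, against 11.8% of all regions. Both arrays were above 0 in 4 regions, below 0 in 2 and on opposite sides in 3. The median was 0.06, and 0.03 over the 8 regions without the fragment, beside a median of -0.00 over all tested regions, of which 32.1% were above 0 on both arrays and 32.0% below. Oxct2a and Oxct2b were not analysed here.

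Among the genes of synthesis, neither of those described here passed the adjusted threshold. Hmgcll1, an enzyme of acetoacetate formation outside the mitochondria, had a log2 ratio of -0.05 and 0.04 (-0.01 ± 0.06, SD, n = 2, adjusted p = 0.977 in limma), and it was at 0.43 with normexp signals. Acat1, the mitochondrial thiolase that joins acetyl-CoA units, was read by 1 probe at -0.05 and -0.86 (-0.46 ± 0.57, adjusted p = 0.513 in limma), and loess on the processed signals put it at 0.10. That probe was dim, with 92.2 at E17.5 and 89.8 at P21 in replicate 1, and 87.9 and 49.2 in replicate 2. Its ratio is therefore a reading of low signals.

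The genes of use differed more between themselves. Oxct1, the transferase that activates acetoacetate in tissues that burn ketone bodies and that is silent in the mature hepatocyte, had -1.07 in replicate 1 and -0.54 in replicate 2 over 6 probes (-0.80 ± 0.38, SD, n = 2, limma adjusted p = 0.383). It was lower at P21 on both arrays without passing the test, the opposite side of 0 from the Bdh1 fragment. Its lowest probes lay in the middle of the region, at chr15:3808532-3808587 and chr15:3808787-3808842. The former gave 2844 and 4483 at E17.5 against 681 and 1716 at P21, and log2 ratios of -2.07 and -1.41. The latter gave 2741 and 3484 at E17.5 against 480.2 and 1780 at P21, and log2 ratios of -2.53 and -0.99.

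In Oxct1 both ends lay near 0, with -0.15 and 0.09 at the first probe and -0.00 and 0.07 at the last. A stretch of changed ratio next to probes without that change was therefore seen there too, in the other direction and with a smaller step. With normexp signals the Oxct1 mean was -0.28. Aacs, which activates acetoacetate in the cytosol for lipid synthesis, had 0.11 and 0.12 (0.12 ± 0.01, SD, n = 2, limma adjusted p = 0.533). Bdh2, a cytosolic short-chain dehydrogenase first described as a second hydroxybutyrate dehydrogenase, had -0.04 and 0.58 (0.27 ± 0.44, adjusted p = 0.575 in limma), on opposite sides of 0, and -0.30 with normexp signals.

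The wider lists held no region that was 2-fold higher or lower on both arrays, and limma called 0 in each. Over all tested regions 0.0965% were 2-fold higher, 0.295% were 2-fold lower and 0% were called, so nothing is read from these counts. The shares at an unadjusted p below 0.05 given here stand beside 11.8% of all tested regions. The transporters of ketone bodies and other monocarboxylates, 9 genes in 10 regions, had a median of -0.03 and a range from -0.44 to 0.24, with 4 regions (40%) at an unadjusted p below 0.05. The lowest were Slc16a6, a monocarboxylate transporter, at -0.44 ± 0.32 (n = 2, limma adjusted p = 0.428) and Slc5a8, a sodium-coupled monocarboxylate transporter, at -0.36 ± 0.02 (adjusted p = 0.370 in limma). With normexp and loess they were at -0.04 and -0.09, and another Slc16a6 region was at -0.03 on the processed signals. In fatty acid oxidation, 22 measured of 23 genes in 26 regions, means over the arrays ran from -0.29 to 0.21 with a median of -0.02 and 1 region (3.85%) at an unadjusted p below 0.05. Its extremes were the acyl-CoA dehydrogenases Acadm at -0.29 ± 0.05 (n = 2, limma adjusted p = 0.390) and Acadl at 0.21 ± 0.12 (adjusted p = 0.459 in limma, and -0.25 with normexp signals). The arrays lay on opposite sides of 0 in 14 of the 26 regions, so the range of the means is narrower than that of the single arrays. Both counts include the region shared by Hadha and Hadhb once for each gene.

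Regulators of ketogenesis, 13 measured of 15 genes in 16 regions, had a median of -0.01, with 3 (18.8%) at an unadjusted p below 0.05. A region of Sirt5, a mitochondrial deacylase, had 0.09 and -2.23 (-1.07 ± 1.64, n = 2, limma adjusted p = 0.549), so replicate 2 alone was low, and the mean was -0.23 with normexp. Its other regions were at -0.07 and 0.02. Ppara, the nuclear receptor that drives fat oxidation and ketogenesis genes, was at -0.35 ± 0.16 (n = 2, limma adjusted p = 0.402), and at 0.02 with normexp signals. Short-chain dehydrogenases, the enzyme family of Bdh1, ran from -0.76 to 0.34 with a median of -0.07 in 43 regions of 39 measured genes, and 6 (14.0%) had an unadjusted p below 0.05. Bdh1 itself was kept in the ketone body list. A region of Dhrs4, a carbonyl reductase, was lowest at -0.76 ± 0.19 (n = 2, limma adjusted p = 0.359), followed by Wwox, a tumour suppressor of this family, at -0.46 ± 0.13 (adjusted p = 0.366 in limma). With normexp this order turned, with Dhrs4 at -0.13 and Wwox at -0.33, and a further Dhrs4 region was at 0.17 on the processed signals.

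The fetal liver also makes blood, and the hepatocyte matures after birth, so lists for both were read beside the fragment. Erythroid genes had a median of 0.01 in 23 regions, from -1.39 to 0.39, with 6 (26.1%) at an unadjusted p below 0.05. Their lowest were a region of Dmtn, a protein of the red cell membrane skeleton, at -1.39 ± 0.64 (n = 2, limma adjusted p = 0.377), and the water channel Aqp1 at -0.86 ± 0.48 (adjusted p = 0.391 in limma). With normexp these were at -0.59 and -0.46, and another Dmtn region was at 0.03 on the processed signals. Mature hepatocyte genes had a median of 0.03 in 27 regions, from -1.08 to 0.34, with 3 (11.1%) at an unadjusted p below 0.05. Both arrays were above 0 in 9 of them and below 0 in 10. The lowest were Trf, the plasma iron carrier transferrin, at -1.08 ± 0.32 (n = 2, limma adjusted p = 0.359), and Hpd, an enzyme of tyrosine breakdown, at -0.97 ± 0.47 (adjusted p = 0.383 in limma). With normexp they were at -0.64 and -0.82. Neither list held a region as high as the Bdh1 fragment. Of all 17617 tested regions only 3 others had a mean at least as high, so nothing is read from that absence. The part of the cell mix in the ratio of the fragment was not tested. The signs of these list medians are not stable: normexp turned 3 of the 7 lists, no centring turned 1, and centring on all probes, which moved the median of all regions to 0.10, turned 4.

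**Figure D5:**
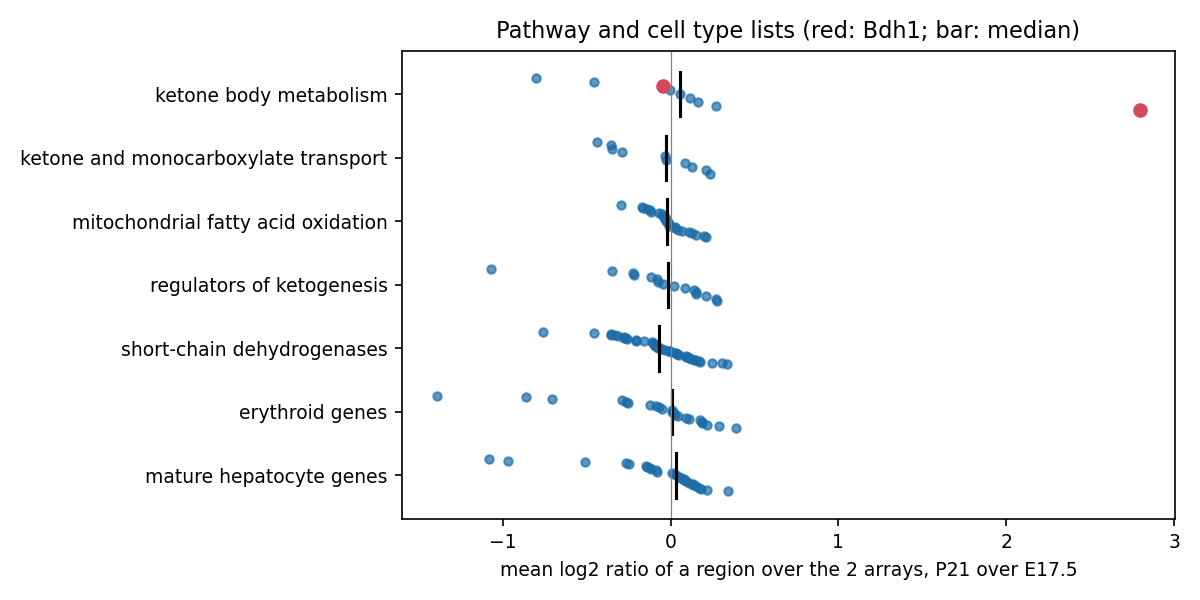
Mean log2 ratio of P21 over E17.5 over both arrays (horizontal axis) of each tested region in 7 gene lists (vertical axis, with points spread vertically by rank). Blue points are regions, red points both Bdh1 regions and black bars list medians. The Bdh1 fragment lies at 2.80, and the other regions of the lists between -1.39 and 0.39.

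On the array design that holds Bdh1, log2 ratios had an SD of 0.40 in replicate 1 and 0.60 in replicate 2, and 70.6% and 67.0% of probes were well above background at E17.5. The medians of these arrays before centring were 0.013 in replicate 1 and 0.025 in replicate 2. The replicate 2 array stood apart on the X chromosome, where 13.4% of probes were 2-fold lower against 1.40% in replicate 1, with 3.67% and 2.13% of autosomal probes. The Bdh1 fragment was on an autosome and about as high on either array. Ratios of both arrays correlated with an r of 0.337 across regions, a description over regions that share dyes and arrays.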

How the data were processed

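Scanner files were produced by the authors with Agilent Feature Extraction (version 9.1.3.1 for 3 arrays, 9.1.1.1 for the other), per the file headers, and version 9.1.1.1 stands in the submitters' processing notes. The deposited processed intensity is background-subtracted and scaled by 1 linear dye factor per channel. The log10 ratio that the authors deposited differed from the log10 of red over green processed signals by at most 4.2e-07. Both samples of an array hold identical files, so the E17.5 signal was taken from the Cy3 columns and the P21 signal from the Cy5 columns. The deposited series table repeats this intensity, linear and uncentred, from the sample's own channel: 100% lay within 1% of the scanner values. Its medians were 460, 308, 341 and 275 at E17.5 and 454, 312, 330.2 and 267 at P21.

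Log2 ratios were centred on the median of the tested probes of each array, with no loess. A probe was tested if it was no control, had no outlier flag and was well above background in either channel on both arrays (29838 of 41545 and 29678 of 41577 probes). Regions join probes up to 500 bp apart and take the mean of tested probes. limma 3.58.1 (R 4.3.3) tested region means against 0 with Benjamini-Hochberg adjustment. Calls needed an adjusted p below 0.05, and were kept where the mean log2 ratio reached 1 in size and both arrays had 1 sign. The fit was tested on simulated data. Gene names were updated through the RefSeq gene table of GRCm38.p6 (3916 of 19356 names, Bdh to Bdh1 among them). The array is the replicate block by construction, and the deviations of its channels correlated at 0.699 across regions.

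The members and lists were chosen with earlier results of these data known. Named genes are Bdh1, the measured ketone body genes, the 2 regions of largest size in each other list, the nearest region on either side, and the 5 regions nearest in ratio; some of these are not reported here. Alternatives varied the signal, normalization, centring, filter, region rule, source table, variance model, fold minimum and replicates. Figures used matplotlib 3.10.9.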

Additional observations from a re-analysis of the deposited data

How the results depend on the processing

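The mean log2 ratio of the Bdh1 fragment stayed above 0 under all 14 alternatives and moved by less than 1 SD between arrays in 9. It was 3.04 with normexp, 2.56 with normexp and loess, 2.35 with probes joined up to 200 bp (4 probes) and 3.55 as the median of its probes. It was 3.47 without the end probe, an alternative added after seeing the data, and 2.67 to 2.93 with 1 replicate left out. The gap of the end probe was 3.11 with normexp and loess, 3.76 to 4.28 with 1 replicate left out, and moved by less than 1 SD in 12 of 13. The count of called regions, 0, became 61 with normexp (49 higher, 12 lower), 2 with normexp and loess, and 1 with centring on all probes, added after seeing the data. It stayed at 0 in the other 11, among them the fit with no replicate block. The lowest adjusted p in limma was 0.900 in that fit and 0.140 with the block. A count of 0 cannot fall, so nothing is read from it about the pairing by array. Called list genes went from 0 to 1 with normexp and 1 with normexp and loess, in both cases the Bdh1 fragment, which was chosen on this contrast, so nothing is read from that call. Calls could not be made with 1 replicate left out, because 1 array leaves no residual degrees of freedom. The causes were not tested. The end probe's ratio was smaller than the scanner software's own error on both arrays.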
